A study of Mus musculus with 29 samples.

Results

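The integrated stress response target genes are 10 genes that were chosen by symbol from the 29955 genes of the deposited table of mouse heart expression: Atf4, Atf5, Ddit3, Trib3, Asns, Psat1, Phgdh, Mthfd2, Fgf21 and Gdf15. All 10 symbols have a row in the table. In 9 of them the mean over the libraries was at least 0.5 FPKM, the level required for testing, and Fgf21 did not reach it. FPKM are fragments scaled by transcript length and by how many fragments the library had mapped.

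In the integrated stress response, kinases that sense amino acid shortage, misfolded protein, viral RNA or heme shortage phosphorylate the translation initiation factor eIF2alpha. General translation then falls, while translation of Atf4 mRNA rises, and the transcription factor ATF4 turns on genes for amino acid synthesis, transport and secreted factors. In the heart this response is known from mitochondrial damage and from ischemia, and because ATF4 is largely set by translation, its mRNA level is not a measure of its activity.

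The series follows hearts of male C57BL6 mice (C57BL/6J in the methods), 3 months old at the start, into heart failure (HF) and through recovery. For HF, L-NAME, which blocks nitric oxide synthase, was given at 0.3 mg/ml together with NaCl at 1% in the drinking water for 5 weeks, and from the end of week 1 a subcutaneous pump delivered 0.7 mg/kg of angiotensin II per day. HF week 3 hearts were taken at week 3 of this course, before it was complete. Recovery mice had the same 5 weeks of treatment and were then kept without it until week 7, 9, 11, 13 or 19 of the study, which the labels count as recovery weeks 2, 4, 6, 8 and 14. Controls had neither agent nor pump treatment named in their labels. The 24 libraries used comprise 5 for each group at week 19 (control and recovery), 3 each for HF week 5 and Recovery week 11, and 2 each for HF week 3 and for Recovery weeks 7, 9 and 13. Control week 19 is age-matched to Recovery week 19 and 14 weeks further on than HF week 5, so that induction and age cannot be told apart in a comparison of HF with it. Recovery and age likewise cannot be told apart in Recovery week 19 against HF week 5. Recovery weeks 7 to 13 differ in age from both groups they were compared with. Tissue is named as whole heart or whole ventricle in the labels and as apical portions in the methods. The experiment was run in several cohorts of mice, and the cohort of each library is not given in the sources used here.

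Libraries differed beyond the members. In HF week 3 library 1 a value above 0 was listed for 12816 genes, compared with 16339 to 18091 elsewhere, and its values correlated with those of HF week 3 library 2 across genes with r = 0.885. HF week 5 library 1 correlated with its nearest library with r = 0.956, against 0.984 between HF week 5 libraries 2 and 3. The 10 highest genes held 14.6% to 18.8% of the FPKM at weeks 5 and 19 and 27.9% to 37.4% in early recovery (weeks 7 to 13), while the HF week 3 libraries had 19.8% and 37.5%. Markers of cardiomyocytes were present, with sums over 10 markers of 26713 to 373143 FPKM, although Myh6 was listed at 0 in every library of weeks 5 and 19 and above 0 in every library of HF week 3 and Recovery weeks 7 to 13. HF week 3 and Recovery weeks 7 to 13 were therefore compared with Control week 19 and HF week 5 across this divide, which cannot be told apart from those groups. An entry of 0 is therefore given below as listed at 0, and the calls at HF week 3 are given with and without its library 1. FPKM hold no count of reads, so that the number of fragments behind a value is unknown here.

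ATF4 binds together with C/EBP proteins to a composite element that is often written as TGATGNAA, and the promoters of the 10 genes were searched for these 8 letters on both strands. RefSeq windows from 250 bases before to 50 bases after the transcription start, in build GRCm38.p6, were found for all 10 genes (13 windows). This build is another than the MGSCv37 (mm9) of the expression values, and no measured value was placed on it. The letters occurred in 1304 of the 32851 windows of all genes (3.97%) and in 3 of the 10 genes: Asns, Fgf21 and Trib3. The stretches that hold them are shown because these are the 3 matches among the members. Each is read 5′ to 3′ on the strand of the gene, with the match in capitals.

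Asns, chr6:7693210-7693309, minus strand, bases -100 to -1: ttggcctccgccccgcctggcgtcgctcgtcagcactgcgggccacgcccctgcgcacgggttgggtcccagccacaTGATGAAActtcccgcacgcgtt

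Fgf21, chr7:45615551-45615650, minus strand, bases -160 to -61: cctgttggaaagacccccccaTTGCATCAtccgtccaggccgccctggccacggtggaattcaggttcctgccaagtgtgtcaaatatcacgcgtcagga

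Trib3, chr2:152344028-152344057, minus strand, bases +4 to +33: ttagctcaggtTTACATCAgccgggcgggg

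In Asns the match lay at -23 to -16 in the forward direction, in Fgf21 at -139 to -132 in the reverse direction, and in Trib3 at +15 to +22 in the reverse direction. For Trib3 the end of the RefSeq window was not found in a GENCODE transcript of the gene, so its start may differ between annotations. Such a match is a description of the sequence, and the 7 genes without one lack only these letters in this window. A second element, the ERSE (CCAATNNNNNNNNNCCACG) of genes for chaperones of the endoplasmic reticulum (ER), occurred in 39 windows (0.119%) and in 0 members.

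The 3 transcription factors were the most abundant members on the FPKM scale, which is per length. Means over all 24 libraries were 60.7 FPKM for Atf5, 58.9 for Atf4 and 43.4 for Ddit3. Atf4 lay above 90.2% of the genes tested. The enzymes and Trib3 were far lower, with 3.48 FPKM for Trib3, 2.34 for Mthfd2, 2.09 for Asns, 1.86 for Psat1 and 1.82 for Phgdh, and Gdf15 had 6.74. Members also differed in how much libraries of the same group varied. The SD within groups on the log2(FPKM + 0.5) scale was smallest in Atf4 (0.14) and largest in Gdf15 (0.90), with 0.21 to 0.42 in the other 7 members that were tested.

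**Figure D1:**
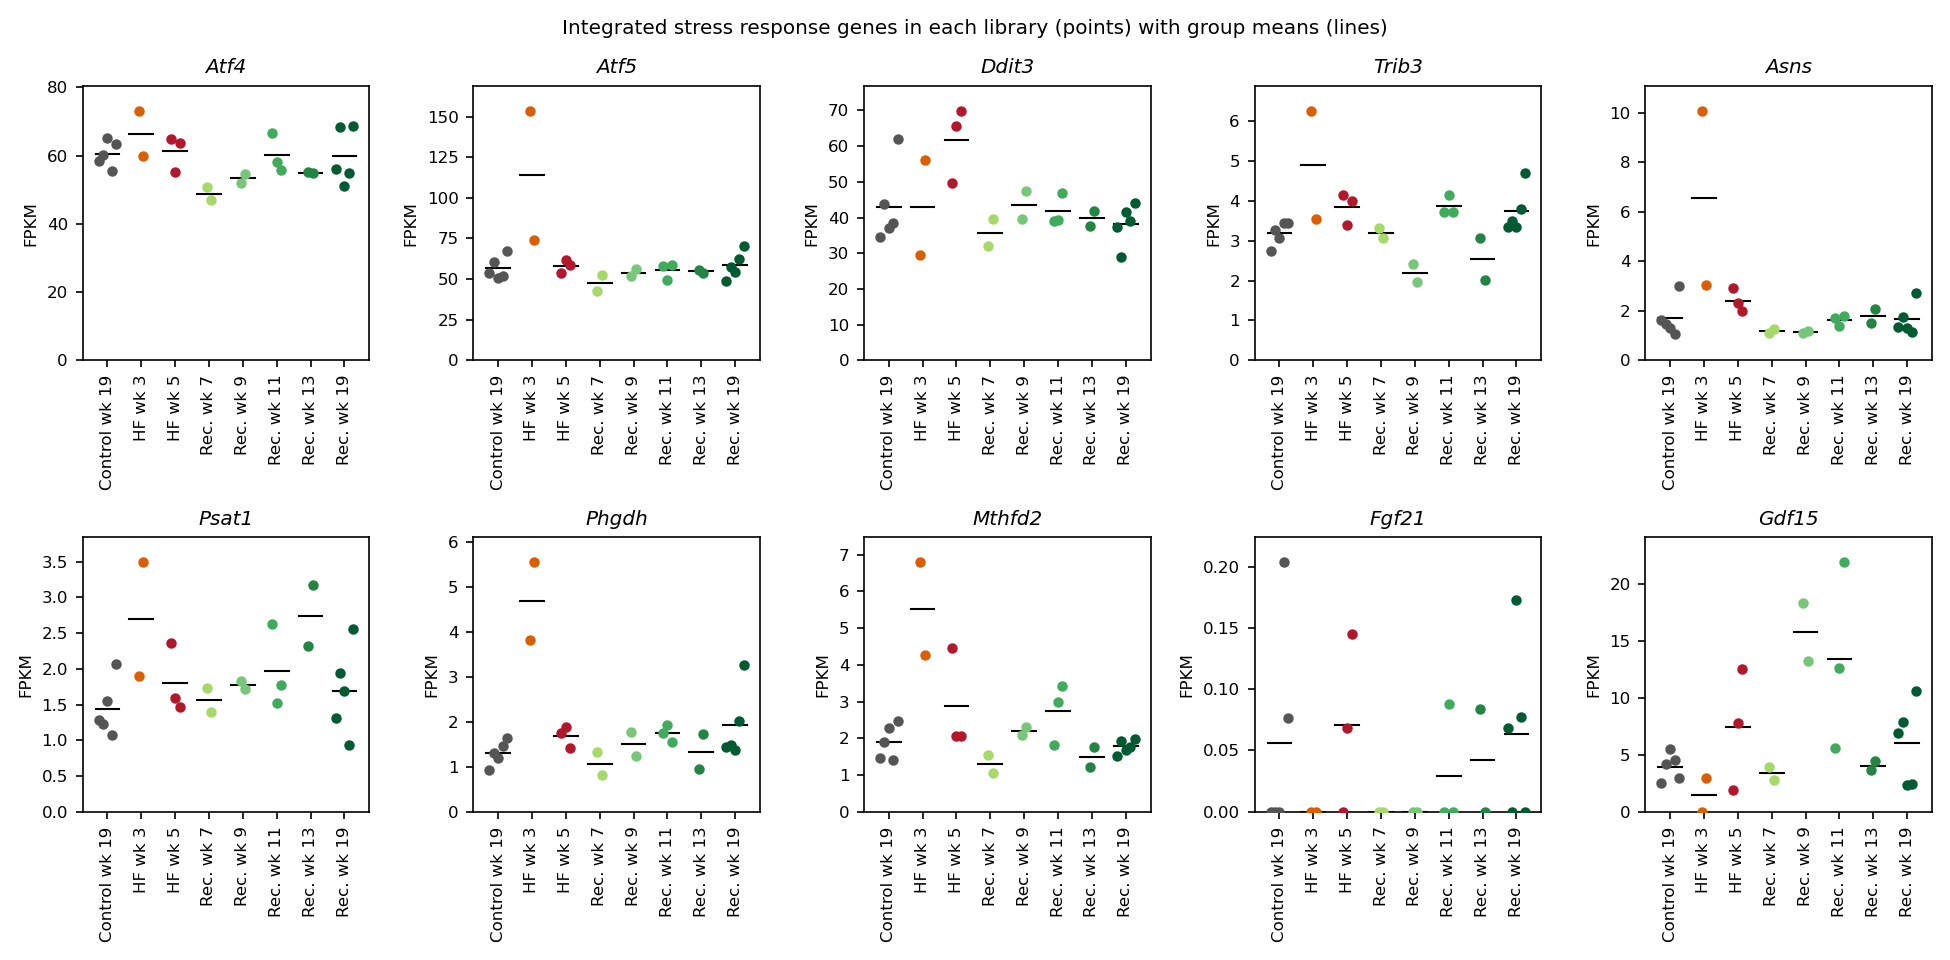
FPKM (linear axis from 0) of each of the 10 genes, one panel per gene, with a point for each of the 24 libraries and a line at the group mean, in groups ordered from Control week 19 through HF weeks 3 and 5 to Recovery week 19. Asns, Phgdh and Mthfd2 are highest in HF week 3, Ddit3 has its highest group mean in HF week 5, Gdf15 is highest in libraries of Recovery weeks 9 and 11, and Fgf21 stays at or below 0.203 FPKM.

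The first comparison asks whether the members differed at the end of induction, in HF week 5 against Control week 19. No member passed the test. Group means of log2(FPKM + 0.5) were higher in HF in all 9 members tested, by 0.017 (Atf4) to 0.57 (Gdf15), but 0 of 9 had an adjusted p under 0.05, while 11.6% of the 12759 genes tested were called higher and 12.4% lower. The median over the 12759 genes was 0.043, and 53.9% of them were higher in HF. At an unadjusted p under 0.05 limma called 1 member, Ddit3, and 18.8% of the genes tested as higher. In 0 of 9 members did the 3 HF libraries lie wholly above or below the 5 controls, against 29.5% of the genes tested.

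Ddit3, which encodes the transcription factor CHOP, came closest to the threshold. Its FPKM was 49.7, 65.7 and 69.9 in HF week 5 and 34.4, 43.7, 36.9, 38.4 and 62.0 in Control week 19. Control library 5 lay above HF library 1, and the other 4 controls lay below all HF libraries. The log2 fold change was 0.53 (SE 0.20, adjusted p = 0.0607 from limma). Ddit3 came under the threshold when Control week 19 library 5 was left out (log2 fold change 0.67, adjusted p = 0.012), and also without the HF week 3 libraries (adjusted p = 0.0235) and after quantile normalization (0.0357).

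Atf4 and Atf5, a relative of ATF4 whose mRNA is also controlled at translation, had about the same level in HF and control. Atf4 had 64.9, 55.2 and 63.7 FPKM in HF week 5 and 55.6 to 65.1 in the 5 controls. Its log2 fold change was 0.017 (95% confidence interval -0.21 to 0.25, adjusted p = 0.929). Atf5 had 53.7, 61.4 and 58.8 FPKM in HF and 50.5 to 67.3 in control, with a log2 fold change of 0.035 (-0.32 to 0.39, adjusted p = 0.905). For both genes each HF library lay within or next to the range of the controls, and the direction turned to -0.043 (Atf4) and -0.025 (Atf5) when libraries were centred on their median. Trib3, a pseudokinase that binds ATF4 and holds back its activity, had 4.16, 3.39 and 4.01 FPKM against 2.74 to 3.45 in control, and its log2 fold change of 0.24 was not called (adjusted p = 0.282).

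The enzymes were not called at HF week 5 either. Asns, which makes asparagine, had 2.90, 2.33 and 1.97 FPKM against 1.63, 1.46, 1.29, 1.07 and 3.00 in control. Control library 5 exceeded every HF library, and the other 4 controls were below them (log2 fold change 0.45, adjusted p = 0.273). Mthfd2, a folate enzyme of the mitochondrion, had 4.46, 2.07 and 2.07 FPKM against 1.40 to 2.47, so that only HF library 1 stood above the controls (0.44, adjusted p = 0.172, and 0.12 without that library, adjusted p = 0.782). Phgdh and Psat1, the first steps of serine synthesis from glucose, had log2 fold changes of 0.28 (adjusted p = 0.373) and 0.25 (adjusted p = 0.465), and Psat1 was at 0.084 without HF library 1.

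The secreted factors had no call. Gdf15, a hormone that acts on the brainstem to lower food intake, had 1.93, 7.80 and 12.6 FPKM in the 3 HF week 5 libraries and 2.51, 4.16, 5.55, 4.58 and 3.00 in control. HF library 1 was below all controls and libraries 2 and 3 were above them, and the log2 fold change of 0.57 had a confidence interval of -0.68 to 1.82 (adjusted p = 0.526). It was 1.27 without HF library 1 and 0.056 without HF library 3. Fgf21, a hormone made chiefly by the liver and by stressed muscle, was listed at 0 in 15 of 24 libraries, including both libraries of HF week 3 and 3 of 5 controls. Its highest value was 0.203 FPKM, in Control week 19 library 4, and it was not tested.

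Recovery week 19 was then compared with HF week 5, from which it also differs in age. Of the 9 members tested 1 was called, and it was lower in recovery: Ddit3. Among all genes 12.0% were called lower and 12.3% higher. Ddit3 had 37.5, 28.8, 41.6, 38.9 and 43.9 FPKM in Recovery week 19, all below the 49.7, 65.7 and 69.9 of HF week 5. It fell by 0.69 on the log2 scale (SE 0.20, adjusted p = 0.0185 from limma). This call was lost without HF week 5 library 2 (adjusted p = 0.0581) or library 3 (0.0796).

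Mthfd2 was also without overlap between these groups, with 1.51, 1.92, 1.69, 1.78 and 1.98 FPKM in Recovery week 19 all below HF week 5. It was lower by 0.50 on the log2 scale, with an SE of 0.23 and an adjusted p of 0.118, and was not called. Before adjustment it was under the threshold, as were 19.3% of all genes with recovery lower. The HF week 5 libraries had 4.46, 2.07 and 2.07 FPKM, and without library 1 the difference was -0.18 (adjusted p = 0.649). Groups that do not overlap with recovery lower were found in 2 of 9 members and in 12.7% of the genes tested. The other 7 members had log2 fold changes from -0.46 (Asns, adjusted p = 0.264) to 0.10 (Phgdh, adjusted p = 0.777). For Atf4 the confidence interval was -0.27 to 0.19 and for Atf5 -0.35 to 0.37. The comparison shares its HF libraries with the one above.

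Against the age-matched Control week 19, Recovery week 19 had 0 of 9 members called by limma, and 0 at an unadjusted p under 0.05. Of all genes, 3 were called higher (0.0235%) and 0 lower (0%), and 2.01% and 0.862% without adjustment. Log2 fold changes of the members ran from -0.15 (Ddit3) to 0.39 (Gdf15). Phgdh was nearest to a call, with 1.43, 1.49, 1.38, 2.03 and 3.27 FPKM in Recovery week 19 and 0.927, 1.31, 1.19, 1.45 and 1.65 in control. Recovery libraries 4 and 5 were above all controls and the other 3 were within their range (log2 fold change 0.38, confidence interval -0.014 to 0.78, adjusted p = 1). Without recovery library 5 it was 0.21. In Gdf15 the interval was wide, -0.69 to 1.47, and without that library the value was 0.14.

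Single libraries of these groups stood above the rest in most members at once. In Recovery week 19 library 5 all 9 members were above the control mean, with a median of 0.50 on the log2 scale, against 8 of 9 in library 2 (median 0.12) and 3 of 9 in each of libraries 1, 3 and 4. In Control week 19 library 5 the same held for 8 of 9 members (median 0.26). Over all genes tested the median was 0.014 in Recovery week 19 library 5 and 0.012 in Control week 19 library 5. With the most similar library of its group, r across genes was 0.978 for the former and 0.979 for the latter, against at least 0.984 and 0.989 for the other libraries. Both had the highest total FPKM of their group. Some marker sums were also high in them, and others were not. Control library 5 had 420 FPKM for leukocytes (244 to 328 in the other controls) and 466 for fibroblasts (322 to 382). It had 442 for endothelium (350 to 380), 3240 for adipocytes (1448 to 1810) and 129 for atrial markers (251 to 399). Recovery week 19 library 5 had 665 for leukocytes (304 to 599 in the other libraries of its group) and 2475 for adipocytes (1693 to 1899). Its fibroblast (584, others 403 to 589) and endothelial sums (372, others 356 to 393) lay within the range. Its smooth muscle and pericyte sum was the lowest (134, others 146 to 177). Their part in the members' values was not tested.

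**Figure D2:**
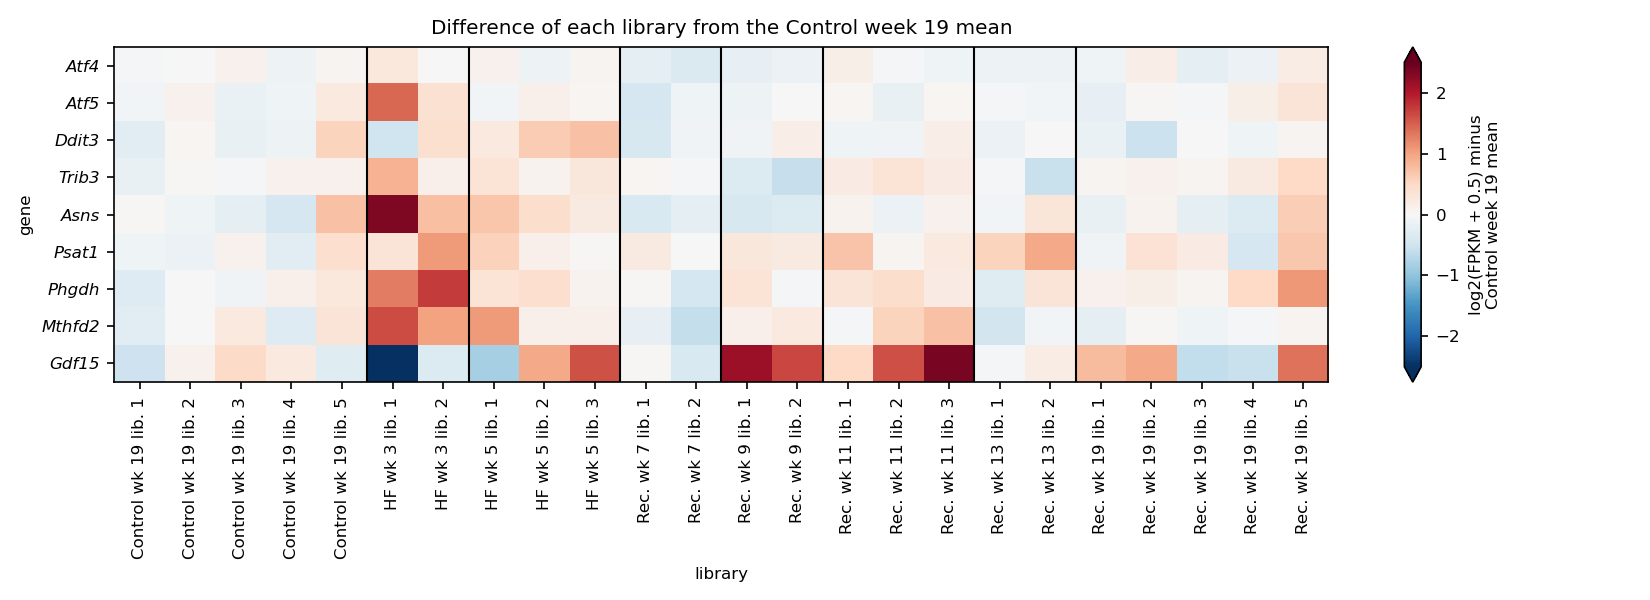
Difference of log2(FPKM + 0.5) from the Control week 19 mean for 9 genes (rows) in 24 libraries (columns), with black lines between the groups, red for higher and blue for lower; colours end at the limits of the scale. HF week 3 stands out in the enzymes, library 1 of HF week 3 has its strongest red in Asns and its strongest blue in Gdf15, and Recovery week 19 library 5 is above the control mean in all 9 genes.

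Most calls came from HF week 3, during induction. Against Control week 19, 6 of 9 members were higher (Atf5, Trib3, Asns, Psat1, Phgdh and Mthfd2) and 1 was lower (Gdf15), while 23.1% of all genes were called higher and 27.6% lower. The background is large because 6471 of 12759 genes were called. Both HF week 3 libraries lay above all controls in 5 of these members (Atf5, Trib3, Asns, Phgdh and Mthfd2), as in 21.4% of the genes tested. The group holds 2 libraries, and without library 1 the remaining one is assumed to vary like the other groups: then 3 members were called, Phgdh, Psat1 and Mthfd2, all higher, with 14.7% of all genes called higher and 15.6% lower. With both libraries, the calls of Trib3 and Psat1 were lost when only these groups were fitted, after median centring and after quantile normalization, and that of Psat1 also without the filter on low values (adjusted p = 0.0626).

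Phgdh had 3.82 and 5.55 FPKM in HF week 3, against 0.927 to 1.65 in control. Both libraries were above each of the other 22. The log2 fold change was 1.51 (SE 0.25, adjusted p = 8.8e-05) and 1.76 without library 1 (adjusted p = 0.000552). Psat1, the next step of the pathway, had 1.90 and 3.49 FPKM against 1.29, 1.23, 1.55, 1.08 and 2.06 in control. Library 1 lay below control library 5 and library 2 above all controls. Its log2 fold change was 0.69 (SE 0.27, adjusted p = 0.0363), 1.06 without library 1 (adjusted p = 0.0198) and 0.33 without library 2 (adjusted p = 0.391). The call was also lost without control library 1, 2 or 4 (adjusted p = 0.0594, 0.0624 and 0.0711).

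Mthfd2 had 6.79 and 4.27 FPKM in HF week 3, both above all 5 controls. Its log2 fold change was 1.32 (SE 0.26, adjusted p = 0.00042), and 1.01 without library 1 (adjusted p = 0.0248). Asns had 10.1 and 3.03 FPKM in HF week 3. Library 1 was the highest of all 24 libraries, whereas library 2 was just above the 3.00 of control library 5. The log2 fold change of 1.54 (SE 0.33, adjusted p = 0.000919) became 0.75 without library 1 (adjusted p = 0.104).

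For the transcription factors the libraries of HF week 3 diverged. Atf5 had 153 and 74.0 FPKM, both above the control range, and differed by 0.91 on the log2 scale (SE 0.20, adjusted p = 0.000902). Without library 1 it was 0.39 (adjusted p = 0.106). Trib3 had 6.27 and 3.55 FPKM against at most 3.45 in control (0.50, SE 0.18, adjusted p = 0.0232), and 0.13 without library 1 (adjusted p = 0.62). Atf4 had 73.1 and 59.7 FPKM and was not called (0.13, adjusted p = 0.409). Ddit3 had 29.6 and 56.1 FPKM, below all controls in one library and within their range in the other (-0.047, adjusted p = 0.881).

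Gdf15 was listed at 0 in HF week 3 library 1 and had 2.92 FPKM in library 2, within the control range of 2.51 to 5.55. Its fitted log2 fold change of -1.72 (adjusted p = 0.0427) rests on that entry, and without library 1 it was -0.34 (adjusted p = 0.779). The call was also lost without control library 2, 3 or 4 (adjusted p = 0.0627, 0.0753 and 0.0673 from limma). It was lost as well with a pseudocount of 1, without the filter, with only the groups compared and after quantile normalization. Groups that do not overlap, with HF week 3 higher, were found in 5 of 9 members (Atf5, Trib3, Asns, Phgdh and Mthfd2) and in 21.4% of the genes tested.

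The difference between HF week 3 and HF week 5 was tested directly. Atf5 (log2 difference 0.88, adjusted p = 0.0128), Asns (1.09, adjusted p = 0.0406), Phgdh (1.23, adjusted p = 0.00813) and Mthfd2 (0.88, adjusted p = 0.0356) were higher in week 3, and Gdf15 was lower (-2.29, adjusted p = 0.0371). Of all genes 8.28% were called higher and 13.1% lower. Without HF week 3 library 1 only Phgdh remained called (1.47, adjusted p = 0.0331), with 0.948% of all genes higher and 0.455% lower. Without HF week 5 library 2 the calls of Asns (adjusted p = 0.0871), Mthfd2 (0.115) and Gdf15 (0.0969) were lost, and without library 3 as well (0.104, 0.111 and 0.125). When only these 5 libraries were fitted 0 members and 8 of all genes were called.

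**Figure D3:**
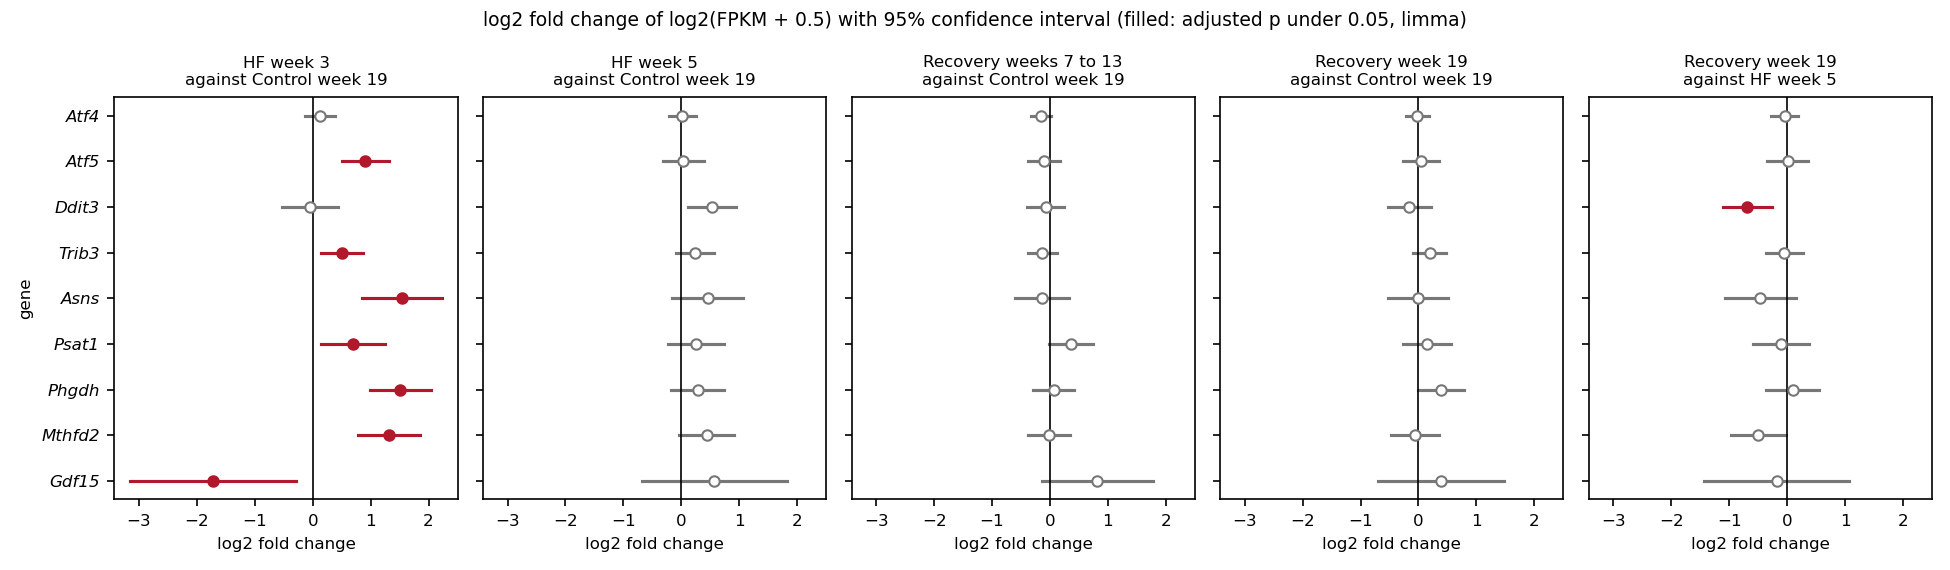
Log2 fold change of log2(FPKM + 0.5) with its 95% confidence interval (bars) for 9 genes in 5 comparisons; filled red points had an adjusted p under 0.05 in limma and open points did not. HF week 3 against Control week 19 has 7 filled points, 6 to the right of 0 and Gdf15 to the left, and the other panels have none except Ddit3 at -0.69 in Recovery week 19 against HF week 5.

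Early recovery was examined as the mean of Recovery weeks 7, 9, 11 and 13 (9 libraries). Against Control week 19, 0 of 9 members were called by limma, and 0 at an unadjusted p under 0.05, while 0.0549% of all genes were called higher and 0.0157% lower (3.36% and 3.53% unadjusted). Against HF week 5, 1 of 9 was called lower, Ddit3, with 10.9% of all genes called lower and 11.2% higher. Ddit3 ran from 31.9 FPKM through a median of 39.5 to 47.5 at Recovery weeks 7 to 13, all below HF week 5 (log2 fold change -0.61, SE 0.18, adjusted p = 0.0236). The call was lost after median centring (adjusted p = 0.0521) and without HF week 5 library 2 (0.0811) or library 3 (0.112). Trib3 (-0.37, adjusted p = 0.0688), Asns (-0.59, adjusted p = 0.116) and Mthfd2 (-0.45, adjusted p = 0.125) were lower at an unadjusted p under 0.05, as were 19.2% of all genes, and not after adjustment. Without HF week 5 library 1 Mthfd2 was at -0.13 (adjusted p = 0.742), and without Recovery week 13 library 1 Trib3 was called (-0.43, adjusted p = 0.0395). Trib3 and Asns were also called lower with only the groups compared (adjusted p = 0.0417 and 0.00764) and without the HF week 3 libraries (0.0202 and 0.0354), and Atf4 after quantile normalization (-0.25, adjusted p = 0.0494).

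Within early recovery the highest group mean lay at week 11 in 5 of the 9 members (Atf4, Atf5, Trib3, Phgdh and Mthfd2), at week 9 in Ddit3 and Gdf15 and at week 13 in Asns and Psat1. No difference between these weeks was tested, and the weeks described here were chosen after their values were seen. Gdf15 had 3.92 and 2.81 FPKM in Recovery week 7. In week 9 it had 18.4 and 13.2 FPKM, and in week 11 its values were 5.59, 12.7 and 21.9. By week 13 they were 3.65 and 4.42, and the libraries of Recovery week 19 had 6.96, 7.85, 2.31, 2.46 and 10.6 FPKM. The highest values were thus in weeks 9 and 11, and week 11 ranged widely. Over the 4 weeks its mean log2 fold change against control was 0.82 (SE 0.46, adjusted p = 0.79). Trib3 was lowest at week 9, with 2.41 and 1.96 FPKM, and had 3.73, 4.14 and 3.73 at week 11. Psat1 had 2.32 and 3.17 FPKM at week 13, beside 1.08 to 2.06 in control. Atf4 was lowest at week 7, with 50.8 and 46.9 FPKM, beside 55.6 to 65.1 in control. Leukocyte marker sums were 452 to 641 FPKM at week 11 and 538 to 708 at week 13, beside 244 to 420 in control. Fibroblast sums were 537 to 865 and 512 to 651, beside 322 to 466. Endothelial sums were 341 to 376 and 336 to 368, beside 350 to 442. The part of these cells in the members' values was not tested.

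Other genes of the pathway were described in the same comparisons, from lists that leave out the 10 members. In HF week 5 against Control week 19 the mitochondrial list had the most calls of the same sign: 7 of 12 genes for mitochondrial proteases and chaperones were lower and 0 higher (median log2 fold change -0.57, against 0.043 over all genes). The background of 11.6% higher and 12.4% lower applies to the counts at HF week 5 with all libraries, and without HF week 5 library 1 it was 4.21% higher and 6.42% lower. Dnaja3, a mitochondrial co-chaperone, fell from 48.3 ± 4.72 FPKM (SD, n = 5) to 27.0 ± 8.09 (n = 3), by 0.87 on the log2 scale (adjusted p = 0.000475). Also lower were Hspd1 (-0.76) and Hspa9 (-0.55), chaperones of the matrix, Clpx (-0.60), Afg3l2 (-0.63) and Oma1 (-0.65), of which OMA1 relays mitochondrial stress to the integrated stress response, and Trap1 (-0.59). Yme1l1 had the highest value of the list (0.019, not called). Without HF week 5 library 1, 4 of the 12 were called lower.

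Of 19 other target genes of ATF4, 3 were higher and 5 lower (median -0.28). Atf3, a stress-induced repressor, had a mean of 24.0 FPKM in HF week 5, from 9.07 to 32.7 (n = 3), and of 7.25 in control, from 4.91 to 12.8 (n = 5), so that the groups overlapped, and was higher by 1.55 on the log2 scale (adjusted p = 0.00871). Nupr1, a small stress-induced nuclear protein, rose by 1.34 (adjusted p = 0.00762), and Pck2, a mitochondrial enzyme, by 0.50 (adjusted p = 0.0322). All 3 rises lost their call without HF week 5 library 1 (adjusted p = 0.082, 0.0655 and 0.222). Ddit4, an inhibitor of mTORC1, fell by 1.41 (22.3 ± 9.76 against 59.0 ± 18.3 FPKM, adjusted p = 0.00407 from limma). Herpud1, of ER protein degradation, fell by 0.78 and Vldlr, a lipoprotein receptor, by 0.67. Gpt2, an aminotransferase, fell by 0.50 and Sesn2, an inhibitor of mTORC1, by 0.59. Sesn2, counted among the 5 lower genes, had means of 0.358 FPKM in HF week 5 and 0.819 in control. Its HF mean is under the level of the filter, which it passed through other groups.

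Upstream of ATF4 most calls were lower. Of 10 genes for eIF2alpha, its kinases and its phosphatase, 0 were higher and 3 lower: Eif2ak1, the heme-regulated kinase that OMA1 signalling reaches (-0.44), and the phosphatase subunits Ppp1ca (-0.58) and Ppp1cb (-0.31). Eif2ak2 had the highest value (0.30, not called). Of 5 subunits of eIF2B, the exchange factor that phosphorylated eIF2alpha blocks, Eif2b3 was higher (0.55) and the lowest was Eif2b1 (-0.34, not called). Of 3 tested receptors for FGF21 and GDF15, Ret, the signalling partner of the GDF15 receptor, was lower (-0.90, adjusted p = 0.000802), at 0.668 FPKM in HF and 1.67 in control, and Fgfr1 was at 0.019.

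Amino acid genes gave few calls. Of 9 amino acid transporters 1 was higher, the glutamine carrier Slc1a5 (0.86), which had 23.7 ± 7.35 FPKM against 12.5 ± 1.08, and the lowest was Slc7a1 (-0.46, not called). Of 21 genes for cytosolic aminoacyl-tRNA synthetases and tRNA export 2 were higher, Cars (0.36) and Gars (0.31), and the lowest was Iars (-0.27, not called). Of 12 other genes for serine, glycine and folate 1 was higher, Aldh1l1 (0.75), and 3 were lower, Shmt1 (-0.85), Shmt2 (-0.48) and Mthfd1 (-0.50). Of 19 ER chaperones and genes of the IRE1 and ATF6 arm 0 were higher and 2 lower, Dnajb9 (-0.52) and Atf6 (-0.47), and the highest was Hsp90b1 (0.37, not called). Without HF week 5 library 1 the counts were 1 higher synthetase, 1 lower folate gene and 1 lower ER gene.

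In Recovery week 19 against HF week 5, which shares the HF libraries, 7 of the 12 mitochondrial genes were higher and 0 lower (median 0.51), and 3 of 12 were higher without HF week 5 library 1. The background was 12.3% of all genes higher and 12.0% lower, and without that library 6.86% and 5.27%. They were Dnaja3 (0.85), Oma1 (0.68), Hspd1 (0.66), Afg3l2 (0.56), Trap1 (0.55), Clpx (0.54) and Hspa9 (0.45). Of the 19 other ATF4 targets 4 were higher, Ddit4 (1.33), Herpud1 (0.90), Sesn2 (0.73) and Vldlr (0.54). In the other direction 3 were lower, Atf3 (-1.81), Nupr1 (-1.17) and Pck2 (-0.47). Without that library 2 were higher and 1 was lower. Sesn2 had a mean of 0.358 FPKM in HF week 5, under the level of the filter, which it passed through other groups. Of the kinase and phosphatase list Ppp1ca (0.69) and Eif2ak1 (0.55) were higher and Eif2ak2 (-0.50), the kinase that binds double-stranded RNA, was lower.

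Among the remaining lists in that comparison, Eif2b3 was lower by 0.68 and Slc1a5 by 0.56. Cars (-0.41) and Gars (-0.34) were lower as well. Shmt1 (0.96), Shmt2 (0.52) and Mthfd1 (0.43) were the 3 higher genes of the folate list, and of its 2 lower genes Aldh1l1 was at -0.70. Dnajb9 (0.66), Atf6 (0.47) and Hyou1 (0.37) were higher, as was Ret (0.94). Without HF week 5 library 1 the calls of Eif2ak2, Slc1a5, Gars, Hyou1 and of all 3 higher folate genes were lost.

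At HF week 3 the lists were read against 23.1% of genes called higher and 27.6% lower, and against 14.7% and 15.6% without library 1. ER chaperones and the IRE1 and ATF6 arm had 11 of 19 higher and 1 lower (median 0.49), and 6 higher without library 1. Creld2 (1.28), Hsp90b1 (1.11), Sdf2l1 (1.07), Pdia6 (1.01) and Pdia3 (0.98), which fold secreted proteins, were the highest. Without library 1 Creld2 (0.84), Pdia6 (0.62) and Pdia3 (0.82) were still called, and Hsp90b1 (0.59) and Sdf2l1 (0.64) were not. The mitochondrial list had 9 of 12 lower and 0 higher (median -0.81), and also 9 without library 1, with Oma1 at -1.63 (-1.24 without it), Clpx at -1.23 (-1.18), Trap1 at -1.20 (-1.12) and Dnaja3 at -1.19 (-1.06). Other lists split: 4 higher and 7 lower of 19 other ATF4 targets, 4 and 2 of 9 transporters, 5 and 3 of 21 synthetases, 1 and 3 of 12 folate genes, 3 and 4 of 10 kinase and phosphatase genes, 2 and 1 of 5 eIF2B subunits and 2 and 1 of 3 receptors. Without library 1 the counts of higher and lower genes were 3 and 3, 3 and 0, 3 and 1, 1 and 2, 0 and 3, 0 and 0, and 0 and 1, in the same order.

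**Figure D4:**
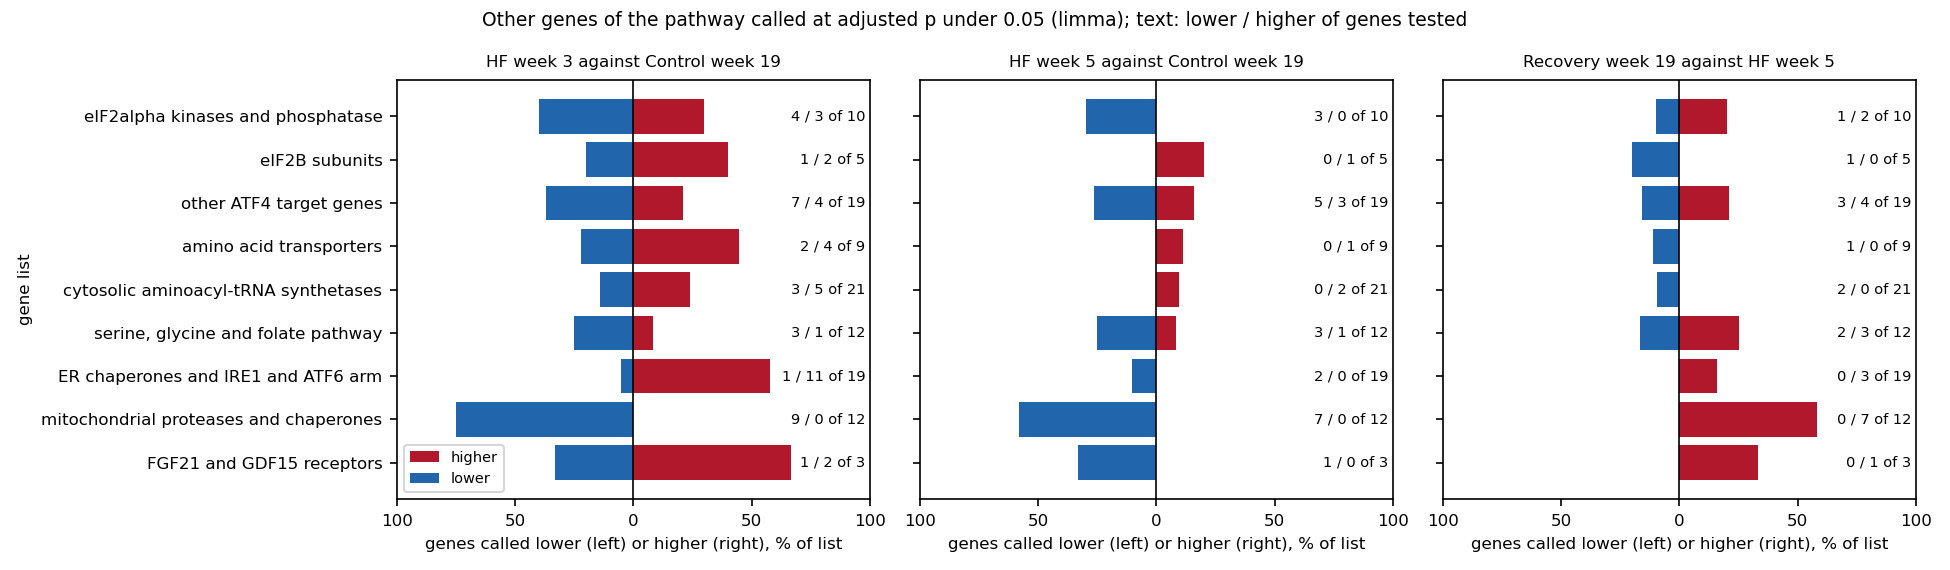
Share of each of 9 gene lists (percent of the genes tested) that limma called lower (blue, to the left) or higher (red, to the right) at an adjusted p under 0.05, in HF week 3 and HF week 5 against Control week 19 and in Recovery week 19 against HF week 5; the counts stand at the right of each bar. Mitochondrial proteases and chaperones extend only to the left in both HF panels (9 and 7 of 12) and only to the right in the recovery panel (7 of 12), and in HF week 3 the bar of the ER chaperones reaches to the right with 11 of 19.

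Markers of other cells moved with these comparisons. In bulk tissue, fewer cells of a type and less RNA per cell cannot be told apart. Of 10 endothelial markers 5 were higher in HF week 5 and 7 higher and 1 lower in HF week 3, with sums of 350 to 442 FPKM in control, 497 to 656 in HF week 5 and 719 to 809 in HF week 3. Of 10 fibroblast markers 6 were higher in each, with sums of 322 to 466, 437 to 902 and 806 to 865. Smooth muscle and pericyte markers were higher in 5 and 4 of 8 (129 to 165, 199 to 291 and 222 to 234). Without HF week 3 library 1, 7 endothelial, 6 fibroblast and 4 smooth muscle and pericyte markers were higher in HF week 3. Without HF week 5 library 1, 4, 1 and 3 were higher in HF week 5. None of these lists had a marker that was at 0 throughout a group.

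Among markers of other tissues, atrial ones were higher in 5 of 6 at both HF times (4 without library 1 in HF week 3), of which Dkk3 had a mean of 0.478 FPKM in control, with sums of 129 to 399 FPKM in control, 2256 to 82523 in HF week 5, where library 1 was the highest, and 7990 to 14252 in HF week 3, where Nppa was listed at 0 and counted as lower. Adipocyte markers summed to 1448 to 3240, 2377 to 3215 and 2864 to 3299 FPKM, with Ucp1 at 0 in control, and hepatocyte markers to 1.15 to 3.79, 5.04 to 114 and 26.0 to 65.9, with Alb, Serpina1a and Fgb at 0 in control. For these lists no count of calls is given, since Adipoq, Cfd, Ucp1, Retn and Cyp2e1 had means under 0.5 FPKM in control and passed the filter through other groups. Leukocyte markers were higher in 0 and 1 of 8, with 1 lower in HF week 3, and 0 either way without library 1 (244 to 420, 303 to 557 and 474 to 475). Cardiomyocyte markers were lower in 1 and 4 of 10 (42139 to 50917, 26713 to 49584 and 78172 to 333287), and in 0 and 3 without library 1 of each HF group. The 1 higher in HF week 3 was Myh6, listed at 0 in all controls and at 37546 and 301793 FPKM in HF week 3. In Recovery week 19 against HF week 5, 5 of 10 endothelial, 3 of 10 fibroblast, 6 of 8 smooth muscle and pericyte and 5 of 6 atrial markers were lower, 1 smooth muscle and pericyte marker and 1 cardiomyocyte marker were higher, and without HF week 5 library 1 the lower counts were 4, 1, 5 and 5. In Recovery weeks 7 to 13 against HF week 5 the lower counts were 6, 2, 4 and 5. The 2 cardiomyocyte markers called higher there were Pln (0.87) and Myh6. Myh6 was listed at 0 in HF week 5 and passed the filter through other groups. The part of these cells in the results of the members was not tested.

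For 8 members the match given is the other gene whose log2(FPKM + 0.5) followed the member most closely over the 24 libraries. These correlations describe libraries that share groups and include HF week 3 library 1, a far point. Pearson r was 0.93 for Asns with Prelid1 and for Atf5 with Eif4e2, and 0.82 and 0.79 without that library. It was 0.92 for Mthfd2 with Tmem45a, 0.88 for Ddit3 with mKIAA1124 and 0.87 for Phgdh with Serpinb8, and without the library 0.89, 0.86 and 0.84. For Psat1 with Cndp2 it was 0.81 with and without it, for Trib3 with Unc119b 0.78 and 0.68, and for Atf4 with Irf8 0.76 and 0.70. In none of these 8 was the closest gene another member.

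Between members, r over the 24 libraries was highest for Atf5 with Asns (0.89) and for Asns with Mthfd2 (0.76). Without HF week 3 library 1 these were 0.68 and 0.57. Gdf15 had negative r with every tested member except Ddit3, down to -0.55 with Asns and with Atf5. Without that library these were -0.14 and -0.030, and r was positive with Atf4 (0.10), Phgdh (0.079) and Mthfd2 (0.18). Ddit3 had low r over the 24 libraries, from -0.05 (Trib3) to 0.30 (Gdf15), and reached 0.61 with Asns and 0.57 with Atf5 without that library. Atf4 had r = 0.66 with Asns and 0.30 with Psat1, and 0.57 and 0.31 without the library.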

How the data were processed

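Libraries were paired-end and made from poly(A) RNA of the heart. The authors aligned the reads with TopHat to MGSCv37 (mm9) and deposited FPKM per library from Cuffdiff, by gene symbol; the annotation is not given in the sources used here. A column was placed in its group by the week that its name gives, and no column names an animal. A further 5 columns were not used: they bear the name of Control week 5, for which 4 samples are labelled, so the comparison of HF week 5 with those controls was not run. Recovery week 9 has 2 columns and 3 labelled samples. The table held 0 pairs of identical library columns. Depth is unknown, and precision is given as the spread between libraries.

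Testing covered genes whose mean reached 0.5 FPKM, as log2(FPKM + 0.5), a scale that understates changes of low genes, with limma 3.58.1 in R 4.3.3 (a mean for each of 8 groups, 16 residual degrees of freedom, eBayes with trend, two-sided). A call was a Benjamini-Hochberg adjusted p under 0.05 over all 12759 genes. No source says that the libraries of a group came from separate animals beyond their labels, so p-values measure the spread between these libraries. Alternatives were pseudocounts of 0.1 and 1, no filter, a mean of at least 1 FPKM, unadjusted p, only the groups compared, no HF week 3 libraries, median centring, quantile normalization and leaving out each library. List counts without single HF libraries were chosen after seeing the data.

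The members and lists were chosen with earlier results of these data known. Named genes are the 10 members, list genes called in HF week 5 against Control week 19 or in Recovery week 19 against HF week 5, the highest and lowest of each list, and the gene most correlated with each member; the genes named from lists at HF week 3 were chosen after their values were seen. Some genes that this rule selects are not reported here. One listed marker, Adgre1, has no row in the table under that symbol. The calculations were tested on simulated data. Tables and figures used Python 3.11.15, pandas 2.3.3, numpy 2.4.6 and matplotlib 3.10.9.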

Additional observations from a re-analysis of the deposited data

Results flagged for a closer look

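A difference between the effects at HF week 3 and at HF week 5, each against Control week 19, passed the test of the difference itself in 5 members. Among all genes 8.28% were called higher and 13.1% lower. On the log2 scale, week 3 minus week 5 was 0.88 in Atf5, 1.09 in Asns, 1.23 in Phgdh and 0.88 in Mthfd2, and -2.29 in Gdf15. Both effects share the control libraries, so the difference is that between the HF libraries. When only those HF libraries were fitted, all of these calls were lost. Without HF week 3 library 1, which had 12816 genes above 0 and in which Gdf15 was listed at 0, the difference of Phgdh was 1.47 (adjusted p = 0.0331 from limma) and the other 4 were not called. A library far from the others of its group by Dixon's criterion was looked for only in the 2 groups of week 19, which have 5 libraries each, and was found in 0 of 20 sets of values. Groups of fewer than 4 libraries, which include both HF groups, were not examined.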

How the results depend on the processing

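Of 1125 fold changes of members recomputed under the alternatives and without single libraries, 1012 kept their direction and their side of the threshold, 46 lost a call, 17 gained one and 50 turned direction; causes were not tested. No paired analysis was possible because the columns carry no link to the labelled animals and the labels pair no samples across groups. Without any adjustment, the calls over all genes were 4653 in HF week 5 against Control week 19, 4695 in Recovery week 19 against HF week 5, 367 in Recovery week 19 against control, 4993 in HF week 3 against HF week 5, 880 in Recovery weeks 7 to 13 against control and 4597 in the same weeks against HF week 5. Calls of members without adjustment were 1 higher in HF week 5 against control (18.8% of all genes) and 2 lower in Recovery week 19 against HF week 5 (19.3%). They were 4 lower in Recovery weeks 7 to 13 against HF week 5 (19.2%), and 4 higher and 2 lower in HF week 3 against HF week 5. In HF week 3 against control, 6 were higher and 1 lower, the same members as with adjustment. There 23.1% of all genes were called higher and 27.6% lower after adjustment. Unadjusted shares of all genes by direction are not reported here for HF week 3. The member higher in HF week 5 was also 1 without the HF week 3 libraries and 1 after quantile normalization.

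In HF week 3 against control the member called lower, Gdf15, became 0 with a pseudocount of 1, without the filter, with only the groups compared and after quantile normalization, and 4105 genes in all were called with only the groups compared. In HF week 3 against HF week 5 the members higher were 2 without the filter and 0 with only the groups compared, those lower were 0 under these settings and after quantile normalization, and 8 genes in all were called with only the groups compared. Recovery weeks 7 to 13 against control gave 88 genes in all with only the groups compared and 17 without the HF week 3 libraries. The same weeks against HF week 5 gave 3 members lower with only the groups compared and 3 without the HF week 3 libraries, where 4250 genes in all were called, 0 after median centring and 2 after quantile normalization.

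Median centring turned Atf4 to -0.043 and Atf5 to -0.025 in HF week 5 against control, Atf4 to 0.017 and Trib3 to 0.013 in Recovery week 19 against HF week 5, and Mthfd2 to 0.0038 in Recovery weeks 7 to 13 against control. Quantile normalization turned Atf5 to -0.017, Trib3 to 0.029 and Psat1 to 0.0037 in Recovery week 19 against HF week 5.

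When each library was left out in turn, some fold changes crossed 0. In HF week 5 against control, Atf4 ran from -0.026 to 0.090 and Atf5 from -0.0076 to 0.097, with 0 to 1 members called higher and 1356 (without HF week 5 library 1) to 3655 genes in all. In Recovery week 19 against HF week 5, Atf4 ran from -0.11 to 0.013, Atf5 from -0.059 to 0.072, Trib3 from -0.12 to 0.0065, Psat1 from -0.24 to 0.064, Phgdh from -0.074 to 0.18 and Gdf15 from -0.88 to 0.33, with 0 to 1 members called lower and 1548 (without HF week 5 library 1) to 3251 genes in all. In Recovery week 19 against control, Atf4 ran from -0.076 to 0.029, Atf5 from -0.025 to 0.11, Asns from -0.16 to 0.18 and Mthfd2 from -0.14 to 0.022, with 3 to 5 genes in all. In HF week 3 against control, Atf4 ran from -0.016 to 0.27 and Ddit3 from -0.50 to 0.41, with 3 (without HF week 3 library 1) to 6 members higher, 0 to 1 lower and 3857 to 8027 genes in all. In HF week 3 against HF week 5, Atf4 ran from -0.033 to 0.26 and Trib3 from -0.10 to 0.64, with 1 (without HF week 3 library 1) to 5 members higher, 0 to 2 lower and 179 (without HF week 3 library 1) to 6771 (without library 2) genes in all. In Recovery weeks 7 to 13 against control, Ddit3 ran from -0.15 to 0.064, Asns from -0.25 to 0.044, Phgdh from -0.013 to 0.15 and Mthfd2 from -0.095 to 0.067. Against HF week 5, Gdf15 ran from -0.45 to 0.76 in those weeks, with 0 to 2 members lower and 1186 (without HF week 5 library 1) to 2727 genes in all.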
